A study of Mus musculus with 4 samples.

Results

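Cluster 8 is a group of mouse cells marked by Pou5f1 and by genes of the epiblast, the pluripotent layer of the early embryo. It is 1 of 15 numbered cell clusters in a table of marker genes that the authors deposited, where each entry sets the cells of 1 cluster against all other cells. All entries that the table gives for this cluster were taken. They cover 117 of the 1197 genes in the table, of which 66 were higher in cluster 8 (5.51% of the genes in the table) and 51 were lower (4.26%). Solved from the deposited detection shares, cluster 8 held 6.04% of all cells (standard error 0.0118 percentage points, from the residuals of the fit). That error covers the solving alone and says nothing of variation between libraries.

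The cells came from mouse embryonic stem cells put through a cardiac differentiation and profiled by droplet sequencing, with 4 libraries in all. The genotypes were BRG1 3XFLAG and BRG1 3XFLAG with BRM KO, so that the tagged BRG1 is shared by both and only the second lacks Brm, an ATPase of the BAF chromatin remodelling complex that can take the place of BRG1. Each genotype was sampled as ES cell derived mesoderm and as ES cell derived cardiac progenitors, with 1 library for each combination and no replicate. The table has no column for the library, and its deposited name refers to the Brm knockout alone, so no value below can be assigned to a genotype or a stage. Which of the 4 libraries its cells came from is not known, and all cells below means the cells that it covers. Whether the knockout line was 1 clone, how many cells were kept and how deeply they were read are points on which the labels and the table are silent.

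After implantation the epiblast turns from a naive into a primed state. It keeps Oct4, gains the de novo DNA methyltransferases and Fgf5, and forms an epithelium joined by E-cadherin. At the primitive streak its cells lose that epithelium, exchange E-cadherin for N-cadherin and become mesoderm, from which the heart arises. Embryonic stem cells on a cardiac protocol pass through the same order of states.

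Folds and shares of cells are the values used. A fold is the exponential of the log fold change in the authors' deposited table, whose base was inferred to be natural, and the table lists a gene only from 0.50 on that scale, with detection in at least 25.1% of the cells inside or outside the cluster. The share of cells with a gene counts cells in which it was detected at all. The cells were clustered on these same genes, so folds and shares describe cluster 8 and test nothing. Because no replicate and no cell number is known, none of them carries an error, and absence from the list does not mean equal levels. A gene found in less than 25.1% of the cells outside a cluster could hardly be listed as lower in that cluster.

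All 6 genes given as markers of these cells were listed as higher. Pou5f1, which encodes the transcription factor Oct4, had the largest fold of the cluster, at 6.31, and was found in 84.1% of the cells of cluster 8 and in 7.1% of the others, per the authors' deposited table. Dnmt3b followed with a fold of 4.41, Pim2 with 4.37, Epcam with 4.04, Fgf5 with 3.32 and Utf1 with 2.77 in the authors' deposited table. The median over the 66 higher genes was 1.83-fold, below the 2.10-fold of all higher entries for the 15 clusters. For the 51 lower genes the median was 2.13-fold lower, against 1.97-fold for all lower entries. Only 19 of the 66 higher genes reached 2-fold, so the cluster was set apart by a few genes with large folds and many with small ones. The lowest values inside the table's threshold were 1.65-fold higher for the splicing factor Srsf3 and 1.68-fold lower for the vesicle membrane gene Cd63 in the authors' deposited table.

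**Figure D1:**
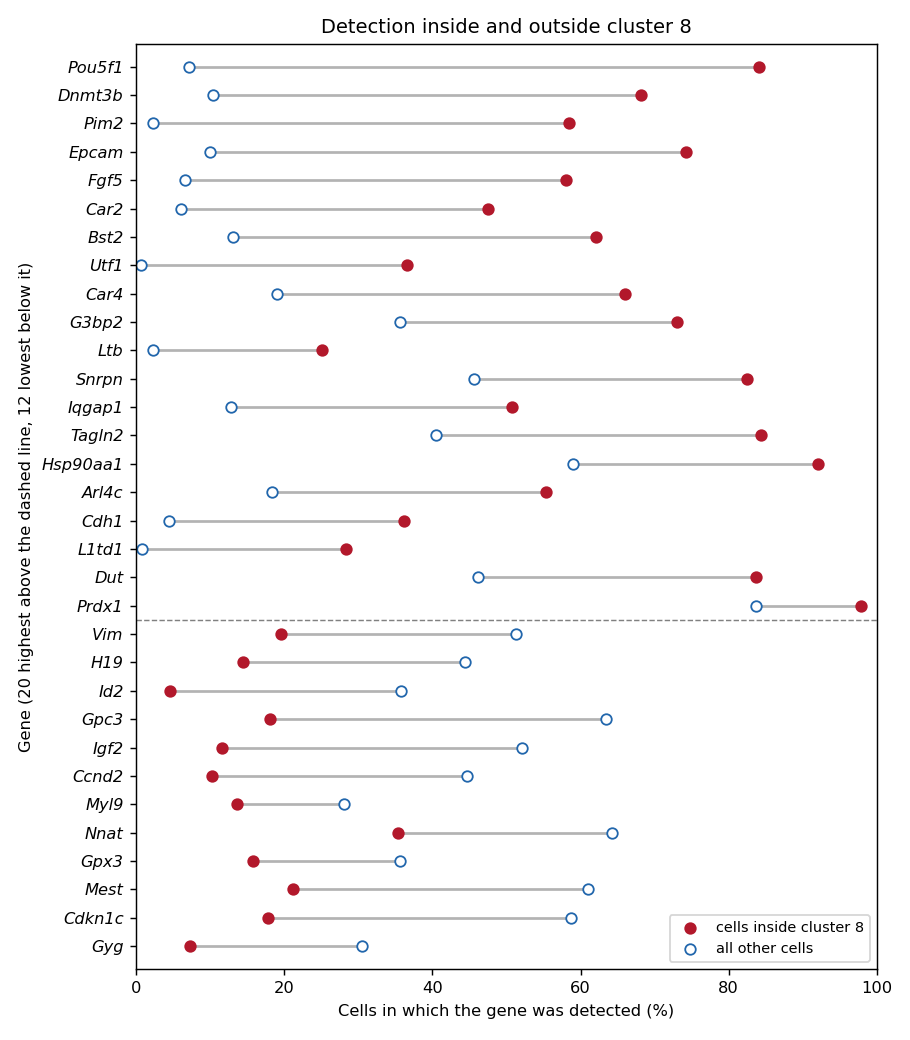
Share of cells (x axis, percent) in which each of the 20 highest and 12 lowest genes of cluster 8 was detected, by the authors' deposited table; filled points are cells inside the cluster, open points all other cells, and no replicate exists. The wide gaps at the top belong to genes that few other cells had, such as Pou5f1 (84.1% and 7.1%), while Prdx1 was found in most cells on both sides (97.9% and 83.7%).

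The pluripotency list had 9 of its 26 genes in the table, and 3 of these were higher in cluster 8 and none lower (5.51% of all table genes were higher). Pou5f1 and Utf1 are also markers given for the cluster, and L1td1 is not. Utf1 is a chromatin-bound factor of pluripotent cells, and L1td1 an RNA-binding protein of the same cells. Utf1 was detected in 36.5% of the cells of cluster 8 and in 0.7% of other cells by the authors' deposited table. L1td1 was 2.14-fold higher and was found in 28.3% and 0.8% in the authors' deposited table. Both were therefore close to absent outside the cluster, yet were not detected in most cells inside it. The other 6 were Sox2, Klf4, Tbx3, Dppa5a, Trap1a and Trim28, and none was listed for cluster 8 in either direction. Klf4 and Dppa5a, which belong to the naive state, had their largest folds in cluster 14, at 4.01 and 2.37, and Sox2 in cluster 6, at 2.45, in the authors' deposited table. The remaining genes on that list, Nanog and Zfp42 among them, were not in the table.

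Of the 18 genes on the primed epiblast list, 4 were in the table. Fgf5, Dnmt3b and Pim2 were higher in cluster 8, and all 3 are also among the genes given as its markers, so they are no separate evidence. The fourth, the homeobox gene Otx2, was not listed for cluster 8. Fgf5, a growth factor ligand made by the epiblast, was detected in 58% of the cells of cluster 8 and in 6.6% of the rest in the authors' deposited table. Dnmt3b, which places new methyl groups on DNA, was found in 68.1% and 10.4% in the authors' deposited table. It was the 1 gene of the 8 DNA methylation enzymes that appeared in the table at all. Pim2, a serine and threonine kinase that promotes growth and survival, was found in 58.4% and 2.3% by the authors' deposited table. Of the 2 germ cell genes in the table, Kit and Ifitm3, neither was listed for cluster 8, where 5.51% of all table genes were higher and 4.26% lower.

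A gene's detecting cells need not lie in the cluster that it marks. With the size of the cluster, the shares give the part of all detecting cells that cluster 8 held, and rounding of the deposited shares moved this part by at most 1.39 percentage points for the 66 genes. Cluster 8 held 77.0% of the cells with Utf1 (75.8 to 78.3 from rounding), 69.5% of those with L1td1 and 62.0% of those with Pim2, as worked out from shares in the authors' deposited table. These were the 3 genes of 66 with more than 50% in the cluster. It held 43.2% of the cells with Pou5f1 (43.0 to 43.4), 29.6% of those with Dnmt3b and 36.1% of those with Fgf5, worked out in the same way. More than 50% of the cells in which Pou5f1, Dnmt3b or Fgf5 was detected thus lay in other clusters. How much of the low detection there was RNA from outside the cell was not tested, as the table gives no background share. Over the 66 genes the median was 12.9%, from 6.28% for the chromatin protein gene Ptma, present in nearly all cells, to the 77.0% of Utf1.

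The promoter of Pim2 is shown because it was the only one, of those matched to genes listed for cluster 8, with the octamer ATGCAAAT (ATTTGCAT on the other strand), the letters that Oct4 and other POU factors bind. The promoters of Pou5f1 and Utf1 stand beside it as the leading pluripotency genes. Each is the 250 bases before the gene's start, 5′ to 3′ on the plus strand, from RefSeq on GRCm38.p6 and not from the build of the study's files. Capitals mark the octamer and the GC box GGGCGG on either strand, and GC boxes may overlap.
Pim2, chrX:7878056-7878305: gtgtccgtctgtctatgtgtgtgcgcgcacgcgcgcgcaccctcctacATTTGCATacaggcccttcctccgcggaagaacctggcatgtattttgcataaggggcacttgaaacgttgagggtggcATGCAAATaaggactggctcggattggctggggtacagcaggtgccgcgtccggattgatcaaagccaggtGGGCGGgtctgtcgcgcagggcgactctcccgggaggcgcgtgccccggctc
Pou5f1, chr17:35505782-35506031: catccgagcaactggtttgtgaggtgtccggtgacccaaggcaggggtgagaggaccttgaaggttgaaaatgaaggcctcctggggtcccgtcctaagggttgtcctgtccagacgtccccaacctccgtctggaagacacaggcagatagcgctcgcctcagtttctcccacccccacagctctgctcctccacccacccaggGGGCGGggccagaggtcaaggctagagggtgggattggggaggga
Utf1, chr7:139943606-139943855: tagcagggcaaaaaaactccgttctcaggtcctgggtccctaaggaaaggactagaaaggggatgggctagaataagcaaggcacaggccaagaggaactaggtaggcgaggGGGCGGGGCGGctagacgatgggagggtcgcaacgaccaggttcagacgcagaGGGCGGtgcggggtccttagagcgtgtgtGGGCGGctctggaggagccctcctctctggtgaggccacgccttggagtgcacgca

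Pim2 held 2 octamers, which began at bases 49 and 128, and 1 GC box. The other 2 promoters held no octamer, with 1 GC box for Pou5f1 and 4 for Utf1. RefSeq gives Pou5f1 another start, whose promoter, not shown, held neither motif. RefSeq promoters were matched for 55 of the 66 higher genes, 71 promoters in all as some genes have several starts. The octamer stood in 1 of the 71 (1.41%), in 12 of 1237 promoters of all table genes (0.970%) and in 526 of all 32851 promoters (1.60%). GC boxes stood in 51 of the 71 (71.8%), in 29 of 52 promoters of the lower genes (55.8%), in 713 of the 1237 of all table genes (57.6%) and in 10756 of all promoters (32.7%). A match of letters is a description and no sign of binding.

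Epithelial genes formed the other leading group. The table held 10 of 22 listed epithelial genes, and for cluster 8 it gave 5 as higher and none as lower (5.51% of all table genes were higher). Epcam, a cell adhesion protein of epithelia, was detected in 74.2% of the cells of cluster 8 and in 9.9% of other cells by the authors' deposited table. Cdh1, which encodes E-cadherin, was 2.14-fold higher and was found in 36.1% and 4.4% in the authors' deposited table. The claudin genes Cldn6 and Cldn7, which seal tight junctions, were 1.93-fold and 1.74-fold higher, and Spint2, an inhibitor of membrane proteases, 1.82-fold higher, by the authors' deposited table. Cluster 3 listed 8 of the 10 as higher, among them all 5 that were higher in cluster 8. The keratin genes Krt8, Krt18 and Krt19, together with Dsp and Spint1, were not listed for cluster 8. All 3 keratins had their largest fold in cluster 3, with Krt8 at 8.87 and present in 93% of its cells in the authors' deposited table.

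Most mesenchymal genes were not listed for cluster 8. From 15 such genes in the table, 3 were lower, 1 was higher and 11 were not listed (4.26% of all table genes were lower and 5.51% higher). Cdh2, which encodes N-cadherin, was 2.25-fold lower and was detected in 6.7% of the cells of cluster 8 against 32.4% of other cells per the authors' deposited table, the reverse of Cdh1. Clusters 5 and 10 also listed Cdh2 as lower, with detection in 5.4% and 6.8% of their cells by the authors' deposited table. Cluster 10 had the largest fold of the mesenchymal gene Col1a1, so low Cdh2 did not set cluster 8 apart from mesenchymal cells. Vim, the intermediate filament of mesenchyme, was 3.14-fold lower, with 19.6% and 51.3%, and the matrix gene Sparc was 2.02-fold lower, with 42.6% and 57.8%, in the authors' deposited table. The exception, Tagln2, encodes an actin-binding protein that is not limited to mesenchyme and was 2.20-fold higher by the authors' deposited table. Vim was also listed lower in clusters 0, 3, 7 and 14, and Sparc in clusters 0, 3 and 12. The primitive streak and nascent mesoderm list had 12 genes in the table. None was higher in cluster 8, and Crabp1, a retinoic acid binding protein, was 2.81-fold lower by the authors' deposited table. Crabp1 was also listed lower in clusters 1, 2, 3, 4, 6, 11, 13 and 14, and higher in clusters 0 and 7 alone. T, the streak factor brachyury, was not listed for cluster 8 and had its largest fold, 8.46, in cluster 3 by the authors' deposited table.

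Imprinted genes, which are read from only the maternal or the paternal copy, were the largest group of lower genes. Of 14 in the table, 7 were lower in cluster 8 and 1 was higher, and the median of the 7 was 4.11-fold lower. Over all table genes, 4.26% were lower and 5.51% higher. Cdkn1c, a cell cycle inhibitor read from the maternal copy, was 6.41-fold lower and was detected in 17.8% of cluster 8 and 58.7% of other cells by the authors' deposited table. Mest, read from the paternal copy, was 5.74-fold lower, with 21.2% and 61%, in the authors' deposited table. Nnat, also paternal, was 5.11-fold lower, and the growth factor gene Igf2 was 4.11-fold lower, by the authors' deposited table. H19, a maternal RNA from the same locus as Igf2, was 3.32-fold lower by the authors' deposited table. The maternal RNA Meg3 and the paternal gene Ndn stood 2.51-fold and 2.18-fold lower, per the authors' deposited table. Genes of both parental copies were thus among the 7. Snrpn, a paternally read splicing gene, went the other way at 2.31-fold higher, with 82.5% inside and 45.6% outside in the authors' deposited table. Cdkn1c, Mest, Nnat and Meg3 were also listed lower in clusters 0, 3, 7 and 14. Igf2, however, was higher in cluster 0, and H19 was higher in clusters 7 and 14. Cluster 1, part of the reference cells, listed Cdkn1c, Mest, Nnat and Meg3 as higher, and folds without it were not worked out.

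The Id genes, inhibitors of differentiation that BMP signalling induces, were lower as well. Of 6 BMP pathway genes in the table, Id1, Id2 and Id3 were lower in cluster 8 and none was higher (4.26% of all table genes were lower). Id2 was 3.47-fold lower and was detected in 4.5% of its cells against 35.7% of other cells in the authors' deposited table. Id3 was 2.93-fold lower, with 32.4% and 59.3%, and Id1 2.09-fold lower, with 19.4% and 40.4%, per the authors' deposited table. Low Id genes were not particular to cluster 8, as clusters 0 and 7 listed Id1, Id2 and Id3 as lower too. Id3 had its lowest level in cluster 0 and Id2 in cluster 7. The ligand genes Bmp4 and Bmp7 and the decoy receptor gene Bambi were not listed for cluster 8. From the Wnt list, the secreted antagonist Sfrp1 was 1.94-fold lower by the authors' deposited table, and the other 5 of the 6 genes in the table were not listed for it. Of the 3 FGF pathway genes in the table, only Fgf5 was listed, and of the 6 Nodal and TGF-beta genes none was.

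The lowest fold of the cluster was that of Gyg, the primer protein of glycogen synthesis, at 6.81-fold lower, by the authors' deposited table. The secreted antioxidant enzyme gene Gpx3 and the myosin light chain gene Myl9 were 5.11-fold and 4.79-fold lower, per the authors' deposited table. Low values of these genes were not particular to cluster 8. Gyg was lower in 8 other clusters and higher in 2, Gpx3 lower in 10 and higher in 3, and Myl9 lower in 10 and higher in 2. All 3 were listed higher in cluster 2, the cluster with contractile genes, which is part of the cells that cluster 8 was set against. When cluster 2 was taken out of those cells, Gyg was 2.04-fold, Gpx3 2.03-fold and Myl9 1.51-fold lower, and Myl9 no longer reached the table's threshold. Mest and Nnat were 6.30-fold and 5.83-fold lower without cluster 2, but cluster 2 lists both as lower too. Leaving it out could therefore only raise their folds. Clusters that list Mest or Nnat as higher, cluster 1 among them, were not left out. The D-type cyclin gene Ccnd2, which drives entry into the cell cycle, was 4.18-fold lower, with 10.3% and 44.7%, and the heparan sulfate carrier Gpc3 3.84-fold lower, with 18% and 63.4%, by the authors' deposited table. Without cluster 2, which lists both as lower too, these values could only rise and were 4.65-fold and 4.10-fold. Ccnd2 was lower in 5 other clusters and higher in 6, and Gpc3 lower in 4 and higher in 2. The other 39 lower genes lay between 1.68-fold and 3.01-fold lower.

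Several cell cycle genes were higher by small amounts. From the S phase list 3 of 9 genes were higher, and from the list of G2 and M phase 3 of 14, with none lower in either. Over all table genes, 5.51% were higher in cluster 8 and 4.26% lower. The nucleotide enzyme gene Dut was 2.08-fold higher, the histone chaperone gene Nasp 1.82-fold and the chromatin remodeller gene Hells 1.67-fold in the authors' deposited table. Tubb4b, a tubulin of the spindle, was 1.98-fold higher, and Cenpf and Hmgb2 were 1.68-fold and 1.65-fold higher, by the authors' deposited table. Of 11 ribosome biogenesis genes, Ncl, a protein of the nucleolus, was 1.98-fold higher and Pa2g4 1.69-fold higher by the authors' deposited table. Nasp and Ncl were also listed higher in clusters 0 and 7, and Nasp had its highest level in cluster 0. Without cluster 2 among the reference cells, Nasp stood at 1.64-fold, Pa2g4 at 1.59-fold, Cenpf at 1.52-fold and Hmgb2 at 1.5-fold, all under the table's threshold, while Dut at 1.91-fold, Tubb4b at 1.85-fold and Ncl at 1.79-fold still passed it.

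Among the other leading genes were the carbonic anhydrases Car2, in the cytosol, and Car4, at the membrane. Car2 was 2.83-fold higher, with 47.5% of cells inside and 6.1% outside, and Car4 2.48-fold, with 66% and 19%, in the authors' deposited table. Bst2, the antiviral membrane protein tetherin, was 2.80-fold higher, with 62.1% and 13.1%, by the authors' deposited table. Ltb, a membrane ligand of the tumour necrosis factor family, was 2.38-fold higher by the authors' deposited table, and at 25.1% and 2.2% it had the lowest share inside of all 66 genes. The RNA-binding gene G3bp2 was 2.46-fold higher, the actin scaffold gene Iqgap1 2.24-fold, the chaperone gene Hsp90aa1 2.17-fold, the small GTPase gene Arl4c 2.14-fold and the peroxide-removing enzyme gene Prdx1 1.98-fold, by the authors' deposited table. The other 46 higher genes lay between 1.65-fold and 1.98-fold.

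Markers of other cell types were looked up in the same way. No gene was listed for cluster 8 in either direction out of 21 cardiomyocyte, 8 cardiac progenitor, 10 neural progenitor, 9 neuron and 10 endoderm genes in the table. Many of these genes were found in too few cells outside cluster 8 for a listing as lower. Elavl3, for example, was found in 46.3% of cluster 12 and in 0.7% of other cells, by the authors' deposited table. Cluster 12 held only 1.60% of all cells. For such genes the lookup could show little but a higher entry. None of the 18 endothelial and blood genes was in the table. Mitochondrially encoded genes numbered 10 in the table. Of these mt-Co1 was 1.69-fold lower by the authors' deposited table, 1.42-fold without cluster 2, and the other 9 were not listed. From 8 stress genes Hsp90aa1 was the only one listed, and of 18 genes of glycolysis and hypoxia none was. None of the 3 BAF complex genes present was listed for cluster 8, nor was Smarca2, the gene of Brm, in the table. Over all table genes, 5.51% were higher in cluster 8 and 4.26% lower, so few or none would be listed from any 1 list of this length. These counts are therefore no sign that a cell type is absent.

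The same 66 genes were then followed through the other clusters. All comparisons share most of their reference cells, so counts of shared genes are a description only. Of the 66, 33 were higher in no other cluster, and 16 of these were not listed elsewhere at all, Dnmt3b, Pim2, Utf1, L1td1, Car2 and Ltb among them. For 49 of the 66, cluster 8 had the highest level of all clusters that listed the gene. By construction these include the 33 that were higher in no other cluster, so only the other 33 could have turned out otherwise. Cluster 2 listed 24 of the 66 as lower, where 25.7% of all table genes were lower and 22.7% higher, and 16 of the 51 lower genes of cluster 8 were higher there. Cluster 3 had the most higher genes in common with cluster 8. It listed 23 of the 66 as higher and none as lower, which is 34.8% of the higher genes of cluster 8 and 36.5% of those of cluster 3 (5.26% of all table genes were higher in cluster 3). It also listed 32 of the 51 lower genes as lower, or 62.7% of those of cluster 8 and 88.9% of those of cluster 3, where 3.01% of all table genes were lower. This sharing was not limited to cluster 3. Clusters 0, 7 and 14 listed 26, 25 and 25 of the 51 as lower (51.0%, 49.0% and 49.0%). These were 57.8%, 73.5% and 22.7% of their own lower genes.

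**Figure D2:**
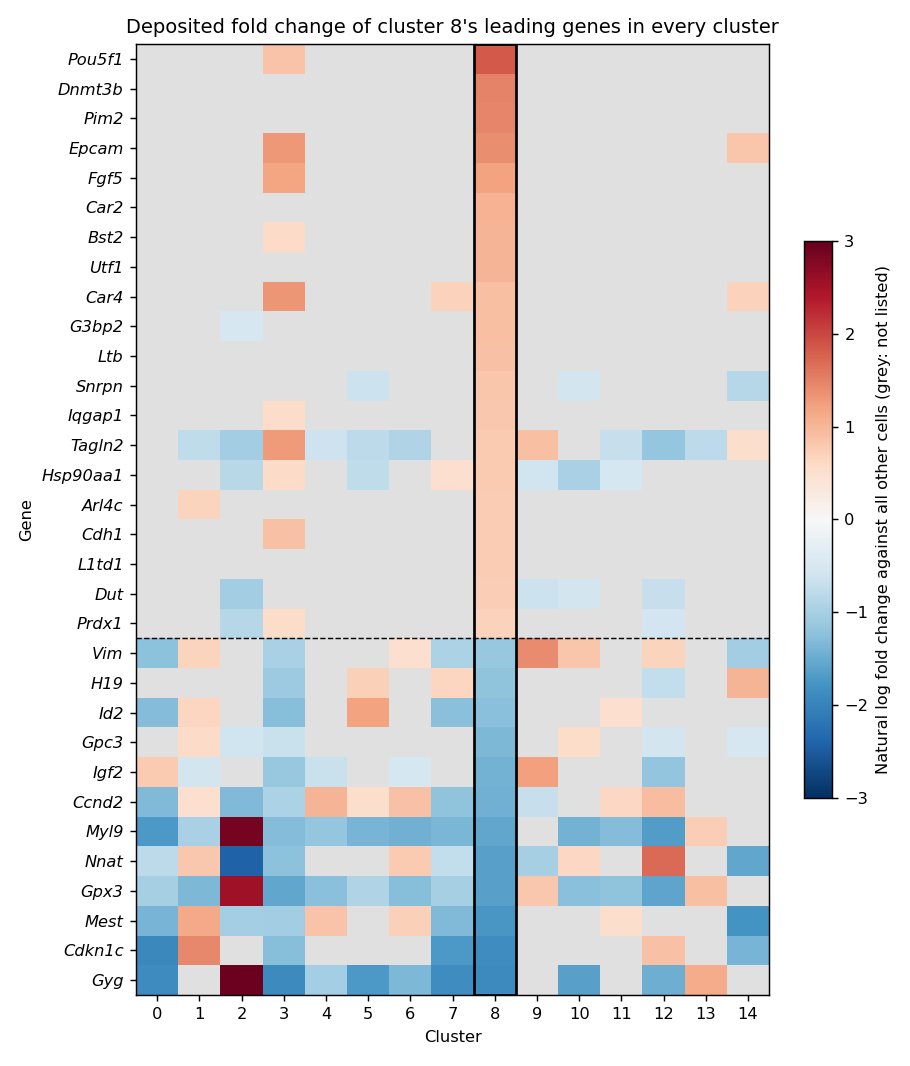
Natural log fold change (colour) of the 20 highest and 12 lowest genes of cluster 8 (rows) in each of the 15 clusters (columns) of the authors' deposited table; grey marks genes that are not listed, which does not mean no difference, and the box marks cluster 8. Dnmt3b, Pim2, Utf1 and L1td1 are coloured in cluster 8 alone, while Epcam, Fgf5, Car4 and Cdh1 are also higher in cluster 3, and the 12 lower genes are listed in many clusters.

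Clusters 8 and 3 together held most of the cells with some of these genes. For Cdh1 the pair held all but 8.06% of the detecting cells, with 34.5% in cluster 8 and 57.4% in cluster 3, and outside both only 0.61% of cells had the gene, as worked out from shares in the authors' deposited table. For Pou5f1, cluster 3 held 40.6% of the detecting cells, leaving 16.2% elsewhere, where 2.27% of cells had it. Fgf5 had 52.8% of its detecting cells in cluster 3 and 11.1% outside both. Epcam had 47.2% in cluster 3 and 20.2% outside both, and Cldn6 and Cldn7 had 65.6% and 60.2% in cluster 3. For these 6 genes at most 20.2% of the detecting cells lay outside the pair, whereas 14 of the 23 shared genes had more than 50% outside it. Cluster 3 itself held 10.4% of all cells.

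**Figure D3:**
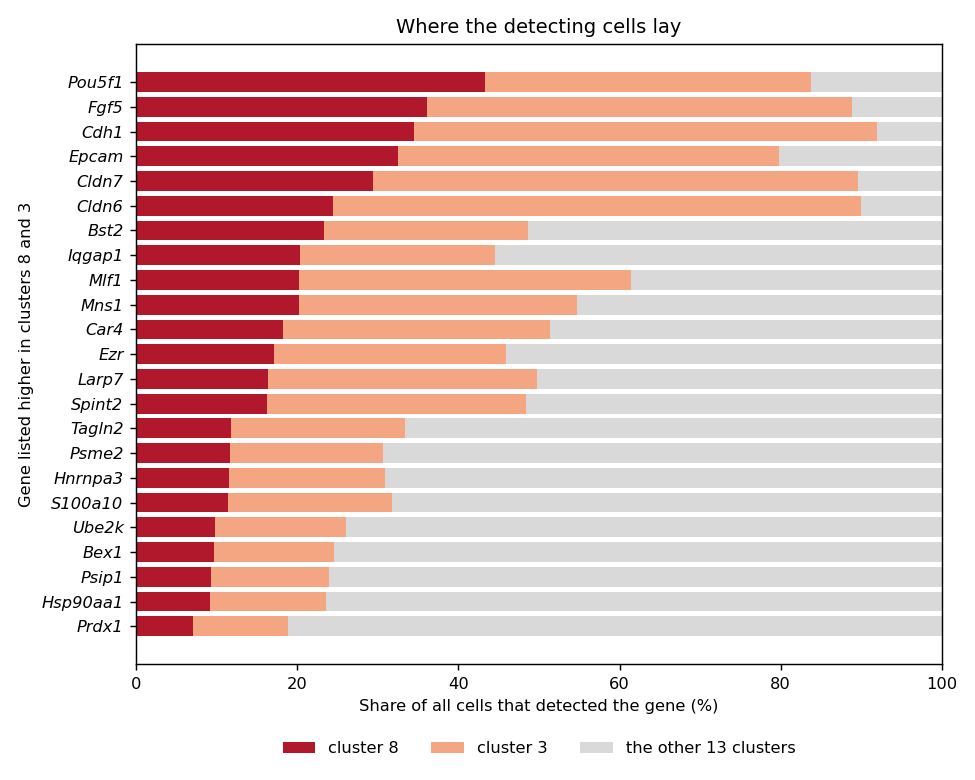
For the 23 genes listed higher in both clusters, the share of all cells detecting the gene (x axis, percent) that lay in cluster 8, in cluster 3 and in the other 13 clusters, as worked out from shares in the authors' deposited table. The 6 genes at the top, from Pou5f1 to Cldn6, had most of their detecting cells in the pair, while Prdx1 at the bottom had 81.1% elsewhere.

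Levels in clusters 8 and 3 could be set side by side for 56 of the 117 genes. The level in each cluster relative to all cells was solved from the fold and the cluster size for these 56 genes, which both clusters list, and 50 lay within 0.5 of each other on the natural log scale. Both clusters had to pass the table's threshold, and 55 of the 56 did so in the same direction, so this closeness is in part built in. Pou5f1 was the only one of the 56 past that bound in favour of cluster 8, at 2.31-fold, and was detected in 84.1% of cluster 8 and 46.1% of cluster 3 by the authors' deposited table. In the other direction, Cited2, a transcriptional coregulator, was 2.76-fold higher in cluster 3, Cldn6 2.18-fold, Mest 2.05-fold, Gpc3 1.99-fold and Cdkn1c 1.85-fold. Cdh1 was nearly level, at 1.05-fold higher in cluster 3, with detection in 36.1% and 35% of the cells in the authors' deposited table. Fgf5 and Epcam were 1.11-fold and 1.19-fold higher in cluster 8. All 7 imprinted genes that were lower in cluster 8 were lower in cluster 3 too, and 6 of them, all but Meg3, stood at a lower level in cluster 8 than in cluster 3. Dnmt3b, Pim2, Utf1 and L1td1 were not listed for cluster 3, so no level could be solved there, but their detection in it has an upper limit, reached if all detecting cells outside cluster 8 lay in cluster 3. This limit, with rounding, was 6.81% for Utf1, 7.71% for L1td1 and 21.3% for Pim2, worked out from shares in the authors' deposited table. All 3 limits lie below the shares in cluster 8 of 36.5%, 28.3% and 58.4% in the authors' deposited table. For Dnmt3b the limit of 94.8% says nothing.

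**Figure D4:**
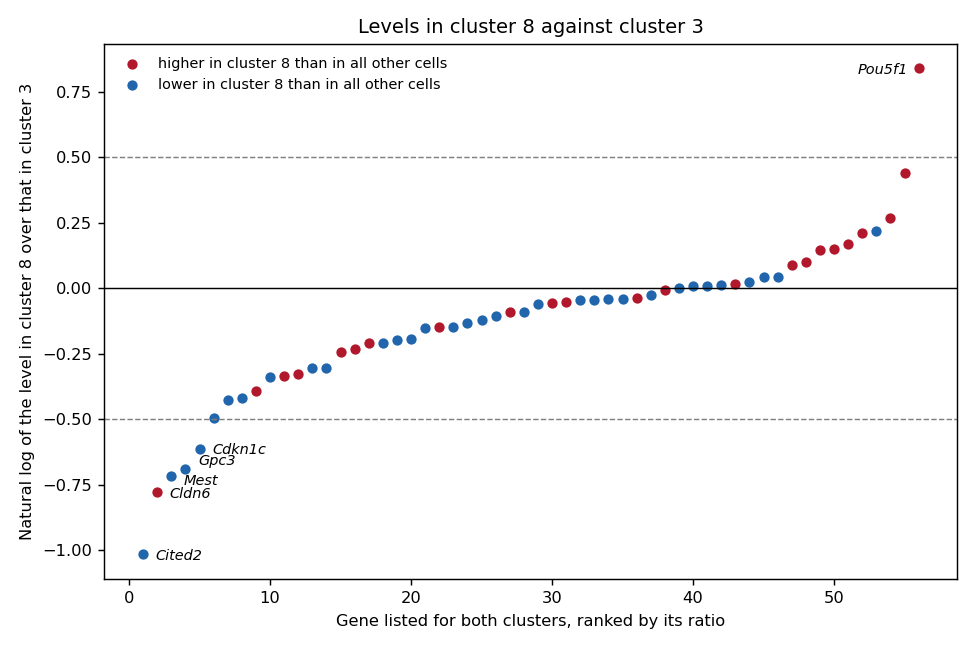
Natural log of the level in cluster 8 over that in cluster 3 (y axis) for the 56 genes listed for both, ranked (x axis); colour gives the direction of each gene in cluster 8 against all other cells, and dashed lines mark 0.5 in each direction. Pou5f1 stands alone above the upper line, and Cited2, Cldn6, Mest, Gpc3 and Cdkn1c lie below the lower line.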

How the data were processed

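Single cells of 4 libraries, 1 per genotype and stage, were measured with 10x chemistry. Per the submitters' processing notes, Cell Ranger, Seurat and the mm9 build were used; versions, cell filters, doublet treatment and clustering settings are not given in any source used here. The authors deposited log fold changes whose base the file header does not name. The natural log was inferred from the deposited values: of 4 genes whose listing clusters hold at least 90% of cells, it held for 4 and base 2 or 10 for 0. The authors deposited the shares of detecting cells as fractions, printed here as percents. The deposited p-values compare cells, which are not replicates, and served only as a filter in 1 alternative.

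Cluster sizes were solved by least squares from 407 genes listed in at least 2 clusters, since each must give 1 overall share (sum 100.002%, residual SD 0.0272 percentage points). A level relative to all cells is F/(1 - s + Fs), for fold F and size s; it includes the constant added before the log, whose size no source used here gives. The members and the 26 gene lists were chosen with earlier results of these data known, and no set was tested. Named genes are the 20 highest and 12 lowest, without predicted models and clones, the markers, all members of 6 early-embryo and epithelial lists, and the 4 largest of each other list. Srsf3, Cd63, Ptma and Cited2, genes named as not listed for cluster 8, and those in the other observations were chosen after their values were seen. Promoters came from RefSeq tables, matched by current or older symbol. Python 3.11.15, numpy 2.4.6, pandas 2.3.3 and matplotlib 3.10.9 were used, and the solver was tested on simulated data. No groups were compared, and no test was run.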

Additional observations from a re-analysis of the deposited data

How the results depend on the processing

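Stricter thresholds shortened the lists of cluster 8. With the natural log bound raised to 0.7 it kept 19 higher and 29 lower genes. Of the higher ones, 13 were higher in no other cluster when entries of other clusters also had to reach 0.7. Weaker entries elsewhere, such as that of Bst2 in cluster 3 (0.564), were thus left out, so not all 13 are among the 33. At 1 or more cluster 8 kept 8 higher and 15 lower genes, with 6 of the 22 higher and 9 of the 16 lower list members. With at least 50% of cells on the larger side, 42 higher and 22 lower genes remained, with 9 lower list members. Filtering the deposited adjusted p-value at 1e-20 left 66 and 50. The size of cluster 8 ranged from 6.04% to 6.05% and its part of the Pou5f1 cells from 43.2% to 43.3% over 2 other estimates. Of 23 named genes that cluster 2 also lists, 17 stayed past 0.5 without that cluster, 6 came to lie below it (Myl9, Cenpf, Hmgb2, Nasp, Pa2g4 and mt-Co1) and none reversed. Genes listed lower in both clusters, such as Mest and Nnat, could only move further past it. All 27 shared with cluster 3 went the same way in both clusters. Leaving cluster 3 out could therefore only enlarge their folds, and it tests nothing that all stayed past 0.5. Cldn6 moved most, from 1.93-fold to 3.21-fold. Of the 56 genes listed for both clusters, the number higher in cluster 8 than in cluster 3 by more than the bound was 1 at 0.5 and stayed 1 at 0.7 and without the size correction. No paired analysis was possible because each group holds 1 library and the table names none.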

Other observations

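The following genes, among the 66 higher ones, were chosen after their values were seen and stand for no group. Phc1, a subunit of a Polycomb complex, was detected in 27.7% of the cells of cluster 8 and in 5.5% of other cells, and Rif1, which sets the timing of DNA replication, in 56% and 24%, per the authors' deposited table. Eras, a Ras family gene of embryonic stem cells, was found in 26% and 2.1% by the authors' deposited table. Of all cells with Eras, 44.3% lay in cluster 8, beside 43.2% of those with Pou5f1, although Eras was only 1.91-fold higher. Syce2, part of the complex that joins chromosomes in meiosis, was 1.66-fold higher, and Mns1, a gene of sperm flagella and cilia, 1.73-fold higher, by the authors' deposited table. Syce2 was listed for no other cluster, and Mns1 also for cluster 3. The chaperone gene Hspa4 was 1.66-fold and the chaperonin subunit gene Cct6a 1.72-fold higher in the authors' deposited table.

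By position, 4 of the 55 higher genes matched in RefSeq lay on the X chromosome (Pim2, Eras, Hprt and Bex1), or 7.27%, beside 4.63% of the 929 matched genes of the table. Hprt, a purine salvage enzyme gene, was 1.70-fold higher and Bex1 1.96-fold higher by the authors' deposited table.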
